A study of Mus musculus with 8 samples.

Results

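Stromal, mural and fibroblast genes were examined in mouse kidney tubuloids, tubule-like structures grown in Matrigel. The members were 10 genes matched by symbol out of 24063 genes in the transcript tables: Acta2, Tagln, Cnn1 and Des, which encode contractile and cytoskeletal proteins, the receptors Pdgfra and Pdgfrb, the surface protein Thy1, the transcription factors Foxd1 and Meis1, and Ren1, which encodes renin. Each of the 10 had counts in at least 7 of the 8 libraries.

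Kidneys of postnatal day 7 to day 10 by the sample labels (the study's methods give a younger range) were fragmented, and the fragments were differentiated with growth factors and kept for 7 days in culture. Every culture carried the same alleles, Pkd2fl/fl Pax8rtTA TetOCre mTmG: floxed Pkd2, a doxycycline-responsive transactivator under the Pax8 promoter, a tetracycline-driven Cre recombinase and a membrane fluorescence reporter. From day 3, doxycycline (DOX, 4 libraries) or the vehicle dimethyl sulfoxide (DMSO, 4 libraries) was given for 3 days, and the comparison asked which transcripts differed soon after Cre was switched on. Because Pax8 marks renal epithelium, Cre was meant to act in epithelial cells, and the study describes E-cadherin-negative structures in the same cultures that did not respond to doxycycline. The whole recovered culture was sequenced, so the genes below were read from mixed RNA and not from sorted stromal cells. In such bulk RNA, fewer cells of a type and less RNA per cell cannot be told apart. The labels do not state whether the libraries came from separate animals, so the p-values measure only the spread between these libraries.

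In the developing kidney, Foxd1-positive stromal progenitors give rise to interstitial fibroblasts, pericytes, vascular smooth muscle cells, mesangial cells and the renin cells of arterioles. Mural cells wrap blood vessels and respond to platelet-derived growth factor through Pdgfrb, while Pdgfra is the related receptor typical of fibroblasts. Actin, transgelin, calponin and desmin build and regulate the contractile apparatus of smooth muscle, and fibroblasts that turn into myofibroblasts also make smooth muscle actin.

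Counts summed over all transcripts ranged from 63922677 to 102716313 per library. Fewer genes had a count in DMSO 20 (13243) and DOX 19 (13599) than elsewhere (17054 to 17903), and the comparison was also fitted without these 2 libraries. DMSO 15 and DOX 21 had transcripts of the Y-linked gene Ddx3y (24.6 and 25.8 TPM, read abundance scaled for transcript length and library total), which had 0 counts in the other 6 libraries. Each group thus held 1 library of each of these kinds. The flow cell lane of each library was not used here.

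To compare genes with each other, the deposited TPM of 1 transcript per gene was used, because reads shared by isoforms were counted for each isoform. On this scale the median over 8 libraries was highest for Tagln (189.9 TPM) and Acta2 (174 TPM). Pdgfrb (96.0 TPM) and Des (58.7 TPM) came next. A lower tier held Meis1 (12.9 TPM), Cnn1 (11.0 TPM) and Pdgfra (9.02 TPM), and Foxd1 (3.77 TPM), Thy1 (2.78 TPM) and Ren1 (1.28 TPM) were the lowest. The ranges over libraries of neighbours in this order overlapped throughout.

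**Figure D1:**
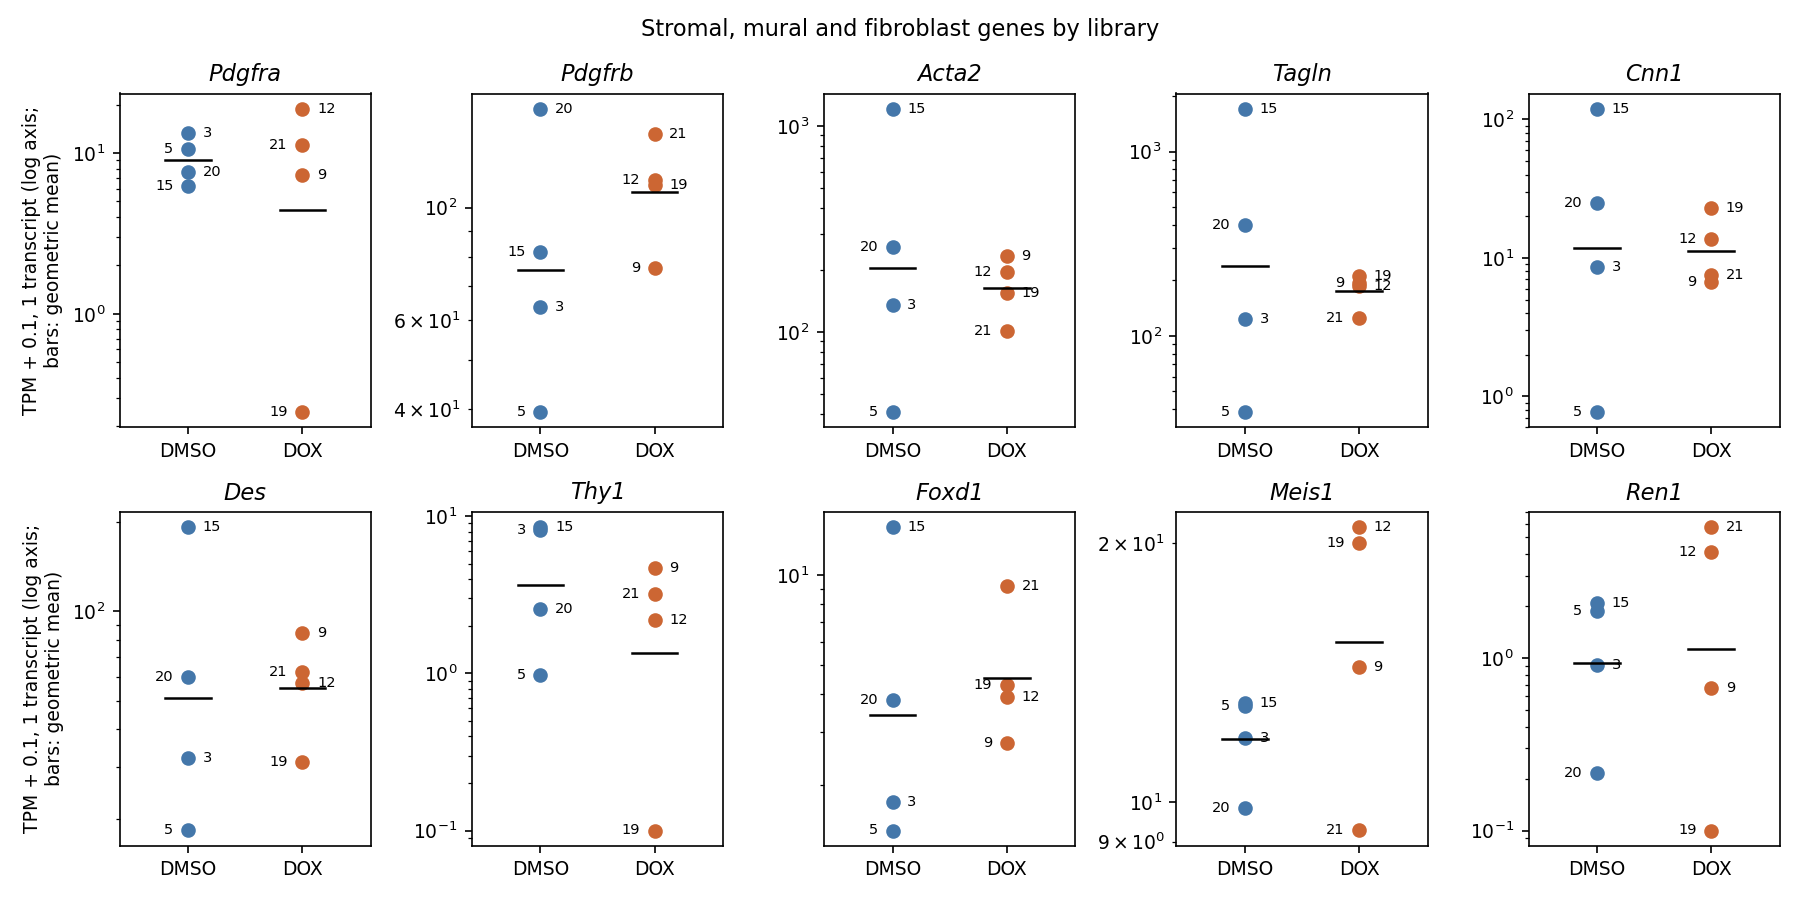
Level of each gene in each library as deposited TPM of 1 transcript plus 0.1, on logarithmic axes that differ between panels. Points are the 4 DMSO and 4 DOX libraries with their numbers, and bars are geometric means. DMSO 15 is the highest library for Acta2 (1212 TPM) and Tagln (1708 TPM), and DOX 19 the lowest for Pdgfra (0.145 TPM), Thy1 and Ren1.

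Acta2 (chromosome 19, 34240336 to 34255585; all gene coordinates are from RefSeq on GRCm38, the assembly of the mm10 build used by the authors) encodes smooth muscle actin. It was at 135, 40.7, 1212 and 258 TPM in DMSO 3, 5, 15 and 20. With doxycycline, libraries 9, 12, 19 and 21 gave 233, 194, 154 and 101 TPM. The DMSO libraries spanned both ends of the range, with DMSO 5 lowest and DMSO 15 highest of all 8, and the DOX libraries lay between them. In DMSO 15, Acta2 ranked 48th of all genes by TPM, and in DMSO 5 it ranked 3139th. The mean normalised count was 48541 ± 66950 (SD, n = 4) with DMSO and 17516 ± 5808 (SD, n = 4) with DOX, a log2 fold change of -1.47 ± 0.889 (SE; adjusted p = 0.999 in DESeq2; exact permutation p = 0.743). The 95% interval of the log2 fold change ran from -3.21 to 0.27. Without DMSO 15 the log2 fold change was 0.19, of the opposite sign, and without DMSO 5 it was -1.85.

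Promoter sequence was looked at for the contractile genes because serum response factor drives many of them through CArG boxes. RefSeq promoter windows of GRCm38.p6 were found for 7 of the 10 genes, and the 250 bases before each table start were searched for CCNNNNNNGG with at least 5 of the 6 inner letters A or T. This pattern reads alike on both strands. It was present in 2823 of 32851 windows (8.59%) and in 3 of the 7 members, Acta2, Meis1 and Ren1. The full box with 6 of 6 inner letters A or T was in 482 windows (1.47%) and in 0 of these 7. The stretches of Acta2, the only one of the 7 with more than 1 match, are printed 5′ to 3′ on the minus strand with the matched letters in capitals. The first stretch lies at chr19:34255438-34255467, and its capitals are 84 to 75 bases before the table start. The second lies at chr19:34255388-34255417, with its capitals 34 to 25 bases before that start. Both stretches fall inside the first exon (34255290 to 34255590) of 1 of the 2 Acta2 transcripts in the GENCODE annotation of GRCm38.
Acta2 upper match: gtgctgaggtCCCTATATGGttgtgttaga
Acta2 lower match: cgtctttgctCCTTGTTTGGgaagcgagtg
These matches describe the sequence only, and factor binding was not measured.

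Tagln (chromosome 9, 45929628 to 45936058) encodes transgelin, an actin-binding protein of smooth muscle. It was at 123, 38.5, 1708 and 399.8 TPM in DMSO 3, 5, 15 and 20. Values in DOX 9, 12, 19 and 21 were 193, 187, 210.2 and 125 TPM. As for Acta2, DMSO 5 was lowest, DMSO 15 highest, and the 4 DOX libraries lay close together, their highest normalised count being 1.73 times their lowest against 56.8 times in DMSO. The mean normalised count was 41215 ± 59050 (SD, n = 4) with DMSO and 11382 ± 2667 (SD, n = 4) with DOX. The log2 fold change of -1.86 ± 0.946 (SE; 95% interval -3.71 to -0.0024) had an unadjusted p of 0.0497 and an adjusted p of 0.943 in DESeq2. The exact permutation p was 0.686. Without DMSO 15 the log2 fold change was -0.08, and without DMSO 5 it was -2.25.

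The ratio of Acta2 to Tagln, both as TPM, stayed between 0.646 and 1.21 in all 8 libraries, although each gene ranged widely across them. The highest ratio was 1.87 times the lowest. The ratio of Acta2 to Cnn1 had a wider span, from 6.80 to 60.7. The ratio of Acta2 to Des ran from 1.62 to 6.32, and that of Acta2 to Pdgfrb from 0.724 to 14.9.

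Cnn1 (chromosome 9, 22099221 to 22109221) encodes calponin, which binds actin and is most typical of differentiated smooth muscle. It was at 8.49, 0.671, 120 and 24.9 TPM in DMSO 3, 5, 15 and 20. In DOX 9, 12, 19 and 21 it was at 6.59, 13.5, 22.7 and 7.37 TPM. Cnn1 had the widest DMSO range of the 10 genes, its normalised count in DMSO 15 being 228 times that in DMSO 5. DOX over DMSO gave a log2 fold change of -1.81 ± 1.12 (SE; adjusted p = 0.999 in DESeq2) and 0.12 without DMSO 15.

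Des (chromosome 1, 75360292 to 75368579) encodes desmin, the muscle intermediate filament that also marks mesangial cells and pericytes. It was at 32.0, 18.2, 192 and 60.1 TPM in DMSO 3, 5, 15 and 20. The DOX libraries 9, 12, 19 and 21 were at 84.7, 57.3, 30.9 and 62.2 TPM. DMSO 15 was again highest and DMSO 5 lowest, and the groups overlapped. The mean normalised count was 10452 ± 11842 (SD, n = 4) with DMSO and 7225 ± 2884 (SD, n = 4) with DOX, and the log2 fold change was -0.53 ± 0.742 (SE; adjusted p = 0.999 in DESeq2). Without DMSO 15 it was 0.65, with a 95% interval of -0.36 to 1.66.

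Pdgfrb (chromosome 18, 61045127 to 61085067) encodes the receptor through which mural cells respond to platelet-derived growth factor B. It was at 63.6, 39.4, 81.6 and 157 TPM in DMSO 3, 5, 15 and 20. With doxycycline, libraries 9, 12, 19 and 21 gave 75.7, 113, 110.5 and 139 TPM. Pdgfrb did not share the peak in DMSO 15, whose normalised count was 0.990 times the median of the other 7 libraries, whereas for Acta2 and Tagln it was 8.72 and 12.6 times that median. DMSO 20 was the highest library and DMSO 5 the lowest. Its log2 fold change was 0.29 ± 0.449 (SE; 95% interval -0.59 to 1.17; adjusted p = 0.999 in DESeq2), and 3 of 4 DOX libraries lay above the DMSO median. The 2 listed transcripts of Pdgfrb had identical counts in 8 of 8 libraries, so its summed count holds each read once for each transcript.

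Pdgfra (chromosome 5, 75151322 to 75198206) encodes the sister receptor, typical of fibroblasts. It was at 13.2, 10.5, 6.15 and 7.49 TPM in DMSO 3, 5, 15 and 20. In DOX 9, 12 and 21 it was at 7.24, 18.8 and 11.2 TPM, and in DOX 19 at 0.145 TPM. DOX 19 stood apart, with 36 and 1 counts on its 2 transcripts, while DOX 12 was the highest library. The normalised count of DOX 19 was 41.7, whereas DOX 9, 12 and 21 had 3951 to 8439. The ratio of Pdgfra to Pdgfrb as TPM was 0.0013 in DOX 19 and from 0.0479 to 0.267 in the other libraries. The log2 fold change was -0.16 ± 0.981 (SE; adjusted p = 0.999 in DESeq2) and 0.25 without DOX 19, and it was 0.14 without both DMSO 20 and DOX 19.

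Thy1 (chromosome 9, 44043384 to 44048579) encodes the surface glycoprotein CD90, which marks fibroblasts and, in mice, also T cells and neurons. It was at 8.10, 0.878, 8.43 and 2.48 TPM in DMSO 3, 5, 15 and 20. In DOX 9, 12 and 21 it was at 4.57, 2.10 and 3.08 TPM, and in DOX 19 it had 0 counts, where a floor of 3 counts would be 0.0456 TPM. The 2 highest values were in DMSO 3 and DMSO 15, and the groups overlapped through DMSO 5 and DMSO 20. DOX over DMSO gave a log2 fold change of -1.22 ± 1.31 (SE; 95% interval -3.78 to 1.34; adjusted p = 0.999 in DESeq2). Without DMSO 20 and DOX 19 it was -1.04 (adjusted p = 0.908 in DESeq2). T cell markers were at or near 0, with Cd3e, Cd3g and Cd8a at 0 counts in all 8 libraries and Cd4 at 0.0352 TPM at most. The 4 neuronal markers summed to between 0.0762 and 12.1 TPM and were highest in DMSO 15, where Tubb3 led them at 10.3 TPM, and their part in the Thy1 values was not tested.

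Foxd1 (chromosome 13, 98354245 to 98356705) encodes the forkhead factor of renal stromal progenitors and is also made by podocytes. It was at 1.65, 1.30, 14.4 and 3.72 TPM in DMSO 3, 5, 15 and 20. Values in DOX 9, 12, 19 and 21 were 2.65, 3.81, 4.20 and 9.14 TPM. The highest library of each group was the one with Ddx3y transcripts. With all libraries the log2 fold change was -0.25 ± 0.849 (SE; adjusted p = 0.999 in DESeq2). Without DMSO 15 it was 1.16 (95% interval -0.10 to 2.41; DESeq2 adjusted p = 0.625), and without both DMSO 15 and DOX 21 it was 0.65 (DESeq2 adjusted p = 0.914). The 4 podocyte markers summed to 66.2 TPM in DMSO 15 and 119 TPM in DOX 21, against 22.2 to 60.4 TPM in the other libraries. Synpo (28.6 TPM) and Podxl (12.3 TPM) were higher in DMSO 15 than in all others but DOX 21, while Wt1, at 25.3 TPM, was below its 41.9 TPM in DMSO 20, 34.8 TPM in DOX 21 and 31.7 TPM in DOX 19. The part of podocyte transcripts in the Foxd1 values was not tested.

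Meis1 (chromosome 11, 18880428 to 19019651) encodes a homeobox factor found throughout renal stroma. It was at 11.8, 12.8, 12.9 and 9.75 TPM in DMSO 3, 5, 15 and 20. In DOX 9, 12, 19 and 21 it was at 14.3, 20.8, 19.9 and 9.17 TPM. Over 8 libraries Meis1 had the narrowest range of normalised counts of the 10 genes, although within DOX alone Tagln and Pdgfrb were narrower. Its highest DMSO library had 1.61 times the normalised count of its lowest, and its highest DOX library 2.20 times. The log2 fold change was 0.33 ± 0.310 (SE; 95% interval -0.28 to 0.94; adjusted p = 0.999 in DESeq2) and the groups overlapped. Without DMSO 15 and DOX 21 it was 0.62, at an unadjusted p of 0.0186 and an adjusted p of 0.414 in DESeq2. With DMSO 20 and DOX 19 left out instead it was 0.06, at an unadjusted p of 0.85.

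Ren1 (chromosome 1, 133350674 to 133360320) encodes renin, the protease that starts the angiotensin cascade. It had 58, 92, 134 and 5 counts in DMSO 3, 5, 15 and 20. In DOX 9, 12, 19 and 21 it had 40, 278, 0 and 317 counts. The lowest libraries were DOX 19 and DMSO 20, those with few detected genes, and the highest were DOX 21 and DOX 12. DOX over DMSO gave a log2 fold change of 0.97 ± 1.44 (SE; 95% interval -1.86 to 3.80; adjusted p = 0.999 in DESeq2). Without DMSO 20 and DOX 19 it was 1.02 (adjusted p = 0.908 in DESeq2), without DOX 21 it was 0.11, and limma-voom with all libraries gave -0.41. Ren1 and Ren2 had identical counts in 8 of 8 libraries, so the reads cannot be assigned to either gene. Connexin 40, encoded by Gja5 and found in renin cells and arterial endothelium, was at 2.24 to 11.7 TPM. Akr1b7, another renin cell gene, was at 0.148 to 1.98 TPM.

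Between DOX and DMSO, 0 of the 10 genes passed the call threshold of DESeq2 (adjusted p up to 0.05 together with a 1.5-fold difference), which 25 of 17011 genes passed (0.147%). Of those, 14 were higher with DOX (0.0823%) and 11 lower (0.0647%). Tagln was the 1 gene of the 10 with an unadjusted p under 0.05, a level reached by 4.67% of 19268 genes. In edgeR 0 of the 10 were called (0% of 15562 genes) and 0 had an unadjusted p under 0.05 (3.06% of genes). For 0 of the 10 did the DOX libraries lie on one side of the DMSO libraries, which held for 478 of 17550 genes (2.72%). The log2 fold change was above 0 for 3 genes (Pdgfrb, Meis1 and Ren1) and below 0 for 7, with a median of -0.39, beside a median of -0.07 over all genes tested. Of those 17011 genes, 7549 were above 0 and 9462 below. The median standard error of the 10 was 0.917 on the log2 scale.

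**Figure D2:**
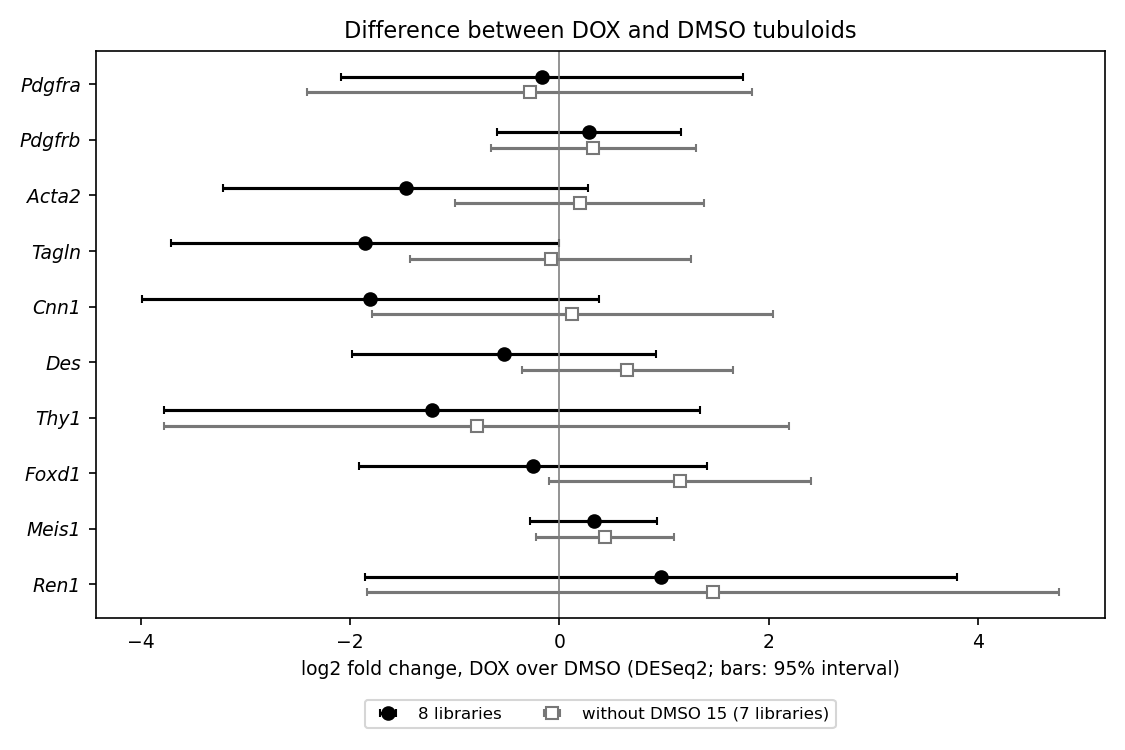
Log2 fold change of DOX over DMSO for the 10 genes from DESeq2, with bars for the 95% interval. Filled circles use 8 libraries and open squares leave out DMSO 15. Acta2 moves from -1.47 to 0.19, Tagln from -1.86 to -0.08 and Foxd1 from -0.25 to 1.16, while Pdgfrb stays at 0.29 and 0.33.

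The contractile genes varied more among DMSO than among DOX libraries. Of the 10 genes, 6 were highest in DMSO 15 by normalised count (Acta2, Tagln, Cnn1, Des, Thy1 and Foxd1). Its normalised count relative to the median of the other 7 libraries was 14.2 times for Cnn1, 5.19 times for Foxd1, 4.61 times for Des and 4.14 times for Thy1, but 1.11 times for Meis1 and 0.752 times for Pdgfra. How many of all genes were highest in DMSO 15 was not computed. The 6 of 10 and the list counts below thus stand without that comparison. The coefficient of variation of Acta2 was 138% in DMSO and 33.2% in DOX libraries, and that of Tagln 143% and 23.4%. Without DMSO 15 the DMSO values were 71.9% for Acta2 and 95.4% for Tagln, still above those in DOX libraries. For Pdgfra it was 38.9% in DMSO and 77.0% in DOX libraries, but 36.5% in DOX libraries without DOX 19, and 17.2% in DMSO libraries without DMSO 3. The difference in spread between groups was not tested. With DMSO 15 and DOX 21 both left out, the log2 fold changes of Acta2, Tagln, Cnn1 and Des were 0.37, 0.05, 0.30 and 0.61, with DESeq2 adjusted p-values of 0.983, 0.998, 0.994 and 0.918. Without DMSO 5, the lowest library for Acta2, Tagln, Cnn1 and Des, their log2 fold changes were -1.85, -2.25, -2.21 and -0.87. The unadjusted p-values of that DESeq2 fit were 0.0126, 0.00392, 0.0119 and 0.189, and the smallest adjusted p was 0.469 (Tagln). Limma-voom with all libraries gave -0.40 for Acta2, -0.52 for Tagln and -0.10 for Cnn1, where DESeq2 gave -1.47, -1.86 and -1.81.

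**Figure D3:**
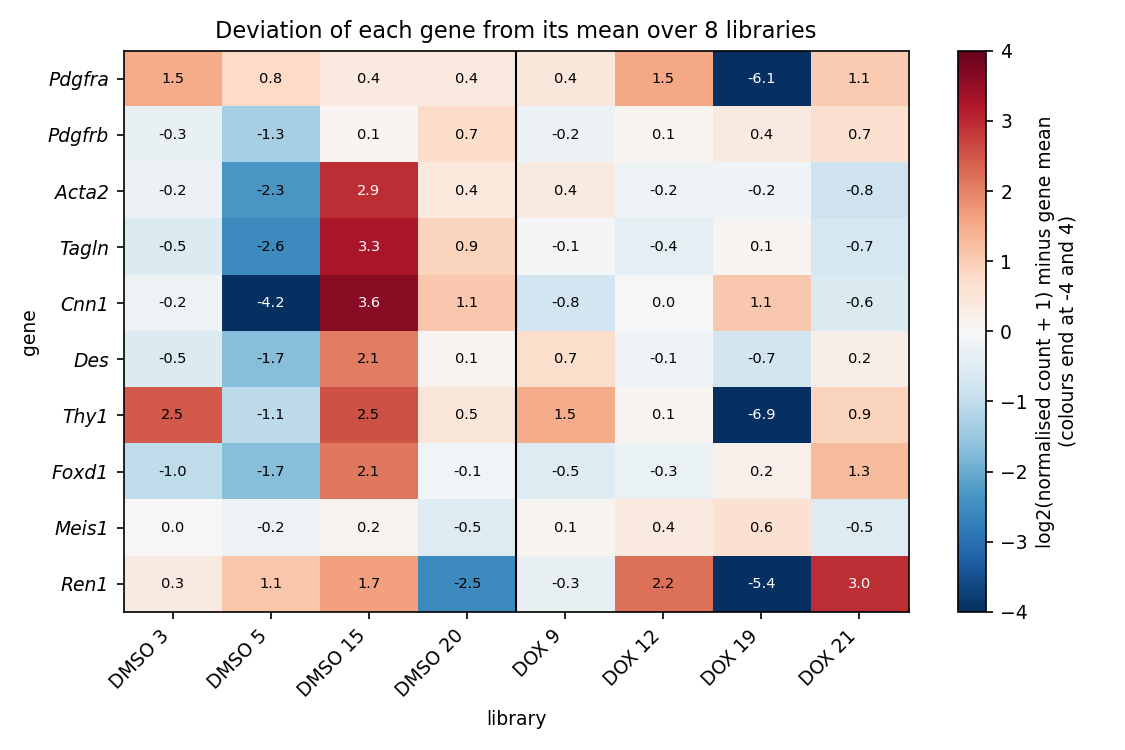
Deviation of log2(normalised count + 1) from the mean of each gene over 8 libraries, with genes in rows, libraries in columns and a vertical line between DMSO and DOX. Red is above and blue below the mean, and colours end at -4 and 4. Acta2, Tagln, Cnn1 and Des share the high column DMSO 15 (2.9, 3.3, 3.6 and 2.1) and the low column DMSO 5, and Pdgfra, Thy1 and Ren1 are lowest in DOX 19.

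Genes whose pattern was most like that of a member were found by the root mean square difference in centred log2(normalised count + 1) over 8 libraries, among 10541 genes with a mean TPM of at least 5. For Acta2 the nearest was Tagln (0.318), followed by Sulf1 (0.547), an extracellular sulfatase, and Vim (0.550), the mesenchymal intermediate filament vimentin. Lrrc32 (0.570), which holds latent TGF-beta at the cell surface, and Ptrf (0.576), a caveolar coat protein, completed the nearest 5. Des was at rank 11, Cnn1 at 162, Foxd1 at 163, Pdgfrb at 1234 and Pdgfra at 9954. For Pdgfrb the nearest were Enpep (0.126), aminopeptidase A, Itgb5 (0.171), an integrin subunit, and Ednra (0.191), an endothelin receptor. Cdh11 (0.217), a mesenchymal cadherin, and Mmp2 (0.230), a matrix protease, came next. None of the members was among the nearest 5 of Pdgfrb, and Acta2 was at rank 9107.

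In 6 further lists of stromal genes, 0 of 50 genes were called by DESeq2 (0.147% of all genes tested), edgeR (0%) or limma-voom. Of the 50, Ren2 had the same counts as the member Ren1. The log2 fold change was above 0 for 15 and below 0 for 35, with a median of -0.36. Over all 17011 genes tested, 7549 were above 0 and 9462 below. The unadjusted p was under 0.05 for 4 genes in DESeq2 (4.67% of all genes), 0 in edgeR (3.06% of all genes) and 0 in limma-voom. The 4 were Myh11, Actg2, Lmod1 and Col1a1. For 0 of the 50 did the groups not overlap, against 2.72% of 17550 genes.

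Of 12 contractile smooth muscle genes, 9 had a log2 fold change below 0 and 10 were highest in DMSO 15 by normalised count. Tpm1, a tropomyosin, was the most abundant, at 494 to 1381 TPM, and Smtn, which encodes smoothelin, was at 54.7 to 249 TPM. Tpm2, another tropomyosin, was at 184 TPM in DMSO 15 and 16.2 to 73.2 TPM in the others. The low values were at the other end of the programme: Myh11, the smooth muscle myosin heavy chain, was at 3.13 TPM in DMSO 15 and at most 0.558 TPM elsewhere, and Myocd, the coactivator of serum response factor, reached at most 0.458 TPM. Actg2, the gamma actin of enteric smooth muscle, was at 16.9, 0.393, 158 and 6.19 TPM in DMSO 3, 5, 15 and 20 and at 2.40 to 14.8 TPM in DOX libraries. Lmod1, a nucleator of smooth muscle actin filaments, was at 0.276, 0.0621, 3.04 and 3.00 TPM in the same DMSO libraries and at most 0.548 TPM with DOX. The groups overlapped for all 3. Myh11, Actg2 and Lmod1 had log2 fold changes of -2.66, -2.62 and -3.03, with unadjusted p-values of 0.024, 0.0369 and 0.0315 and adjusted p-values of 0.83, 0.885 and 0.868 in DESeq2. Without DMSO 15 these were -0.64, -0.0016 and -2.37, with unadjusted p-values of 0.568, 0.999 and 0.156. Without DMSO 20 and DOX 19 they were -2.77, -3.25 and -2.26, with unadjusted p-values of 0.00518, 0.0606 and 0.0614 and adjusted p-values of 0.287, 0.772 and 0.774 in DESeq2.

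Of 8 pericyte and mural genes, 3 had a log2 fold change above 0 and 5 below, with a median of -0.07, and 0 were highest in DMSO 15. Rgs5, a regulator of G protein signalling in pericytes, was at 37.9 to 111 TPM (log2 fold change 0.28). Mcam, the surface protein CD146, was at 15.4 to 32.6 TPM (log2 fold change -0.01). Angpt1, the angiopoietin that mural cells supply to endothelium, was at 2.03 to 21.7 TPM (log2 fold change -0.93). Angpt1 was at 17.0 TPM in DMSO 15, second to 21.7 TPM in DMSO 20.

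Of 12 fibroblast genes, 11 had a log2 fold change below 0, with a median of -0.91, and 10 were highest in DMSO 15. The collagen chains Col3a1, Col1a2 and Col1a1 were the most abundant, at 80.9 to 895, 35.9 to 525 and 37.1 to 732 TPM. Col1a1 was at 178, 37.1, 732 and 60.2 TPM in DMSO 3, 5, 15 and 20 and at 59.2 to 136 TPM in DOX libraries. Its log2 fold change was -1.85 (SE 0.871; unadjusted p = 0.0335, DESeq2 adjusted p = 0.873; exact permutation p = 0.6), without DMSO 15 it was -0.31 (unadjusted p = 0.619) and without DMSO 20 and DOX 19 it was -2.10 (unadjusted p = 0.0167, adjusted p = 0.508).

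Of 9 mesenchymal and renal stromal transcription factors, 4 had a log2 fold change above 0 and 5 below, with a median of -0.12, and 0 had an unadjusted p under 0.05. Meis3 was at 17.3 to 57.5 TPM, Meis2 at 8.47 to 21.1 TPM and Tcf21, a factor of stroma and podocytes, at 20.2 to 134 TPM.

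Among the 4 PDGF ligands, Pdgfa was the most abundant at 41.1 to 90.6 TPM (log2 fold change 0.24). Pdgfc was at 12.2 to 46.5 TPM (log2 fold change 0.28) and Pdgfd at 3.00 to 29.6 TPM (log2 fold change -0.99). Pdgfb, the ligand that recruits pericytes through Pdgfrb, was at 2.23 to 13.5 TPM (log2 fold change -0.99). DESeq2 called 0 of the 4, and 0 had an unadjusted p under 0.05.

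Markers of other cell types were set beside these values. The 9 epithelial markers summed to 2963, 2552, 701 and 1465 TPM in DMSO 3, 5, 15 and 20, led by Krt19, Krt18 and Krt8. In DOX 9, 12, 19 and 21 they summed to 1877, 1210, 1302 and 901 TPM. DMSO 15, with the highest Acta2 and Tagln, had the lowest epithelial sum, and DMSO 5, with the lowest Acta2 and Tagln, had the second highest. DOX 21 did not follow this order, with the second lowest epithelial sum and, at 101 TPM, the second lowest Acta2. All 9 were below 0 in log2 fold change, with a median of -0.65 and Pax8 closest to 0 at -0.0023, and 0 were called. The part of cell mixture in the contractile gene values was not tested.

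The 5 endothelial markers summed to 11.1 to 79.6 TPM, nearly all of it Emcn at 10.9 to 78.9 TPM, while Pecam1 was at most 0.352 TPM, Kdr at most 0.394 TPM and Cdh5 at most 0.17 TPM. Of the 5 macrophage markers 4 were found, with sums of 6.40 to 15.4 TPM in DMSO and 0.0068 to 5.72 TPM in DOX libraries and 0 called. Each of the 4 genes overlapped between groups, and different genes carried the DMSO sums, with Ptprc at 7.10 TPM in DMSO 5, Lyz2 at 13.3 TPM in DMSO 15 and Cd68 at 10.2 TPM in DMSO 20. Of the skeletal and cardiac muscle markers, Myod1 and Myog had 0 counts in all 8 libraries while Tnnt2 was at 4.49 to 37.7 TPM, with 36.2 TPM in DMSO 15. Acta1, skeletal muscle actin, was highest in DMSO 15 as Des was, at 2.89 TPM against 0.0866 to 1.33 TPM elsewhere. The part of muscle cells in the Des values was not tested.

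**Figure D4:**
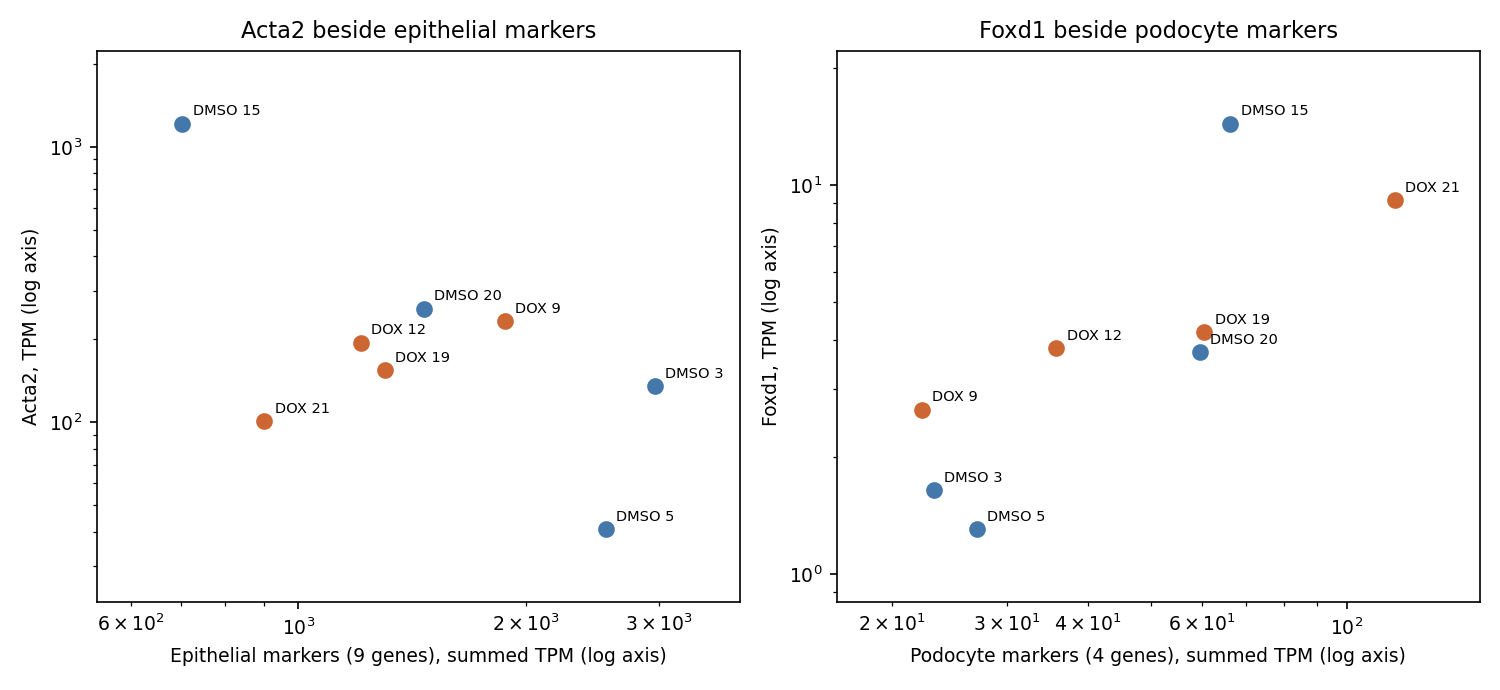
Level of 1 gene against the summed TPM of a marker list in each library, both on logarithmic axes. The left panel sets Acta2 against 9 epithelial markers, where DMSO 15 is at 1212 and 701 TPM and DMSO 5 at 40.7 and 2552 TPM. The right panel sets Foxd1 against 4 podocyte markers, where DOX 21 (9.14 and 119 TPM) and DMSO 15 (14.4 and 66.2 TPM) lie to the upper right.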

How the data were processed

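RNA was extracted from 8 tubuloid cultures (4 DMSO, 4 DOX, grouped by library label) and made into poly-A selected SMART-Seq v4 libraries. Per the labels, STAR, featureCounts and DESeq2 were used by the authors on mm10; versions and strand settings are not given in the sources used here. Each deposited count gives unnormalised whole reads for a RefSeq transcript. The deposited TPM was computed by the authors per transcript. Counts were summed by symbol over 33068 transcripts, which counts reads shared by isoforms more than once, and 19634 genes had a count. With 1 transcript per gene, totals were 39252852 to 64561676. Precision rests on 4 libraries a group; the floor of 3 counts covers counting error only. All 28 library pairs differed beyond sampling noise (chi-square over its degrees of freedom 299 to 949), so none was treated as a library deposited more than once; this does not show that the cultures were separate.

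The test of DOX against DMSO was the two-sided Wald test (DESeq2 1.42.0, the study's tool, under R 4.3.3) without covariates, on median-of-ratios size factors, with independent filtering (alpha 0.1), the filter on Cook's distance and Benjamini-Hochberg adjustment over all genes. Calls needed an adjusted p of at most 0.05 and 1.5-fold. Unadjusted p-values from DESeq2 are named so. Exact two-sided permutation tests of mean log2(normalised count + 1) used 70 assignments, for which the smallest possible p was 0.0286. Alternatives were the quasi-likelihood test of edgeR 4.0.16, limma-voom (limma 3.58.1), limma on log2(TPM + 1) and log2(TPM + 0.1), TMM factors, filters, thresholds, 1 transcript per gene and left-out libraries; leaving out both DMSO 15 and DOX 21 was added after seeing the data. The tests were tested on simulated data: DESeq2 also made calls where no difference had been simulated, more than it made on these data, edgeR and limma made 0 there, and all of them missed many genes simulated with a 4-fold difference.

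The members and lists were chosen with earlier results of these data known. Named genes were the 10 members, the 3 genes of each list with the highest mean TPM summed over transcripts (on 1 transcript per gene, Cald1, Myl9, Nr2f2 and others would rank differently), genes of the lists that were called or did not overlap, and the 5 genes nearest in pattern to Acta2 and to Pdgfrb. Other genes named in the lists (Myh11, Actg2, Lmod1, Myocd, Pdgfb, Cdh5, Cd8a, Myod1, Myog, Krt8 and those in the closing section) and Ddx3y were chosen after their values were seen. Of the lists, 2 genes are not reported here and were left out of every list count and sum. Promoter windows for Pdgfrb, Tagln and Thy1 were not used here.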

Additional observations from a re-analysis of the deposited data

Results flagged for a closer look

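DOX 19 lay far from the other 3 DOX libraries for 2 of the 10 genes. For Pdgfra its gap to the nearest library was 0.856 of the range of the group, with a normalised count of 41.7 against 3951 to 8439, so that the lowest other library was 94.7 times higher. For Thy1 the gap was 0.834 of the range, with 0 counts against normalised counts of 126 to 331, at least 37.2-fold below the lowest other library at a floor of 3 counts. Both exceeded the critical share of Dixon's test for 4 values on the log2(normalised count + 1) scale, but the share of Thy1 rests on where a count of 0 is placed. With the 0 counts set to the floor of 3 counts it was 0.778, under the critical share, and that of Pdgfra was still 0.856. Of the 20 groups of 4 libraries tested, 2 exceeded the critical share as computed and 1 at the floor, where chance gives about 1 in 20, or 1. DOX 19 was also 1 of the 2 libraries with few detected genes, while Pdgfrb in the same library, at 110.5 TPM, was within the range of the other DOX libraries.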

How the results depend on the processing

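The log2 fold changes of the 10 genes were recomputed in 19 alternative fits, giving 190 values, of which 171 kept their direction and stayed uncalled and 19 changed sign; 0 fits called any of the 10 or any of the 50 further stromal genes. Leaving out 1 library at a time gave ranges of -0.63 to 0.25 for Pdgfra (0.14 without DMSO 3, 0.25 without DOX 19), 0.03 to 0.66 for Pdgfrb, -1.85 to 0.19 for Acta2, -2.25 to -0.08 for Tagln, -2.34 to 0.12 for Cnn1, -0.87 to 0.65 for Des, -1.76 to -0.79 for Thy1, -0.76 to 1.16 for Foxd1, 0.17 to 0.51 for Meis1 and 0.11 to 1.47 for Ren1. The sign changes of Acta2, Cnn1, Des and Foxd1 in these ranges came without DMSO 15. With DMSO 15 and DOX 21 left out, Acta2 was at 0.37, Tagln at 0.051, Cnn1 at 0.30, Des at 0.61 and Foxd1 at 0.65. With DMSO 20 and DOX 19 left out, Pdgfra was at 0.14. Limma-voom gave 0.046 for Des, 0.29 for Foxd1 and -0.41 for Ren1, limma on log2(TPM + 1) gave 0.11 for Des and 0.27 for Foxd1, and on log2(TPM + 0.1) 0.12 and 0.41. Some of the values that kept their sign also moved, several of them by over 1.5 times as folds. Limma-voom, limma on log2(TPM + 1) and limma on log2(TPM + 0.1) gave -0.40, -0.33 and -0.32 for Acta2, -0.52, -0.45 and -0.44 for Tagln, -0.095, -0.29 and -0.088 for Cnn1, -1.31, -0.74 and -1.27 for Pdgfra, and -2.33, -0.75 and -1.44 for Thy1. Over all genes, DESeq2 called 25, edgeR 0 and limma-voom 0 (476 and 478 at an unadjusted p under 0.05), and limma on log2(TPM + 1) and log2(TPM + 0.1) 0 each (800 and 749 at an unadjusted p under 0.05). The count was 48 with the Cook's distance filter off (25 higher, 23 lower), 40 at an adjusted p of at most 0.1 (27 higher, 13 lower), 51 without DMSO 20 and DOX 19 (21 higher, 30 lower), 76 without DMSO 15 and DOX 21 (34 higher, 42 lower), and 14 (without DMSO 3) to 75 (without DMSO 15) when 1 library was left out, with 48 without DMSO 20 and 38 without DOX 21. The cause was not tested. No paired or blocked analysis was run, because the groups share no library numbers. The 0 counts of Thy1 and Ren1 in DOX 19 give only an upper limit of 3 counts, although DOX 19 had more counts in all (75138237) than DMSO 5 (70505265), which had counts of both.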

Other observations

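Zero counts of stromal genes fell mainly in the same 2 libraries, which had fewer detected genes in general. Of the 50 genes of the 6 further lists, 12 had 0 counts in DMSO 20, 15 in DOX 19 and 11 in both, against 0 or 1 in each of the other 6 libraries. These were 24% of the stromal genes in DMSO 20 and 30% in DOX 19, where 32.6% and 30.7% of all 19634 genes had 0 counts. In the other 6 libraries 8.82 to 13.1% of all genes and 0 to 2% of the stromal genes had 0 counts. Kcnj8 and Abcc9, the channel and receptor subunits of the ATP-sensitive potassium channel of pericytes, had 0 counts in both DMSO 20 and DOX 19. In the other 6 libraries Kcnj8 was at 3.19 to 16.4 TPM and Abcc9 at 0.362 to 3.14 TPM. They were the only 2 of the 8 pericyte and mural genes with 0 counts in both. Anpep was at 0.249 TPM in DMSO 20 with 0 counts in DOX 19. Rgs5 was at 70.7 TPM in DMSO 20 and 71.1 TPM in DOX 19, and Mcam at 22.1 and 16.0 TPM. Angpt1 was highest in DMSO 20 (21.7 TPM) and Cspg4 in DOX 19 (31.6 TPM). Notch3 was lowest in DMSO 20 (0.971 TPM) and highest in DOX 19 (4.48 TPM). The proteoglycan gene Dcn had 0 counts in DMSO 20 and was at 2.98 TPM in DOX 19, above its 2.01 TPM in DMSO 5, while Lum, another proteoglycan gene of fibroblasts, was at 0.0158 TPM in DMSO 20 with 0 counts in DOX 19. Col3a1 was at 145 and 99.2 TPM in these 2 libraries.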
